A study of Homo sapiens with 5 samples.

Results

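The cells described here are the 300 cells with the highest early stress score among 2996 kept cells of 1 library, in which the breast cancer line MDA-MB-468 had been given an inhibitor of acetyl-CoA carboxylase (ACC) for 6 h. Barcodes were kept with at least 5000 UMIs (unique molecular identifiers, each standing for 1 captured RNA molecule), 1000 or more genes detected, and no more than 20% of their UMIs from the mitochondrial genome. The score of a cell was the sum of its UMIs for 6 genes, DDIT3, CHAC1, SESN2, STC2, TRIB3 and CTH, per 10000 UMIs. The top 10% by this score are called high-score cells, and they were set against the 1498 low-score cells at or below the median, with 1198 cells in between. Because the high-score cells were selected on these 6 genes, the levels of the 6 genes are a description wherever they are given. The 6 genes were left out of the comparisons of other genes and of lists, and of the totals used to scale those. The whole series held 14911 kept cells in 5 libraries.

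MDA-MB-468 is an established human triple-negative breast cancer line, and ACC makes the malonyl-CoA that fatty acid synthesis starts from. The libraries, 1 per group, were made from cells before treatment (0 h), after 6 h and after 72 h with PF0517515, after 72 h without it, and from recovery cells collected after treatment. The labels do not state dose, vehicle or length of recovery, and no untreated 6 h library was analysed, so that the inhibitor and 6 h of culture cannot be told apart. With 1 library per group there was no spread between samples to test against. Every value therefore describes these libraries. A range in parentheses is an exact 95% interval (Clopper-Pearson) and covers counting error only.

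ATF4 is the transcription factor of the integrated stress response. Kinases that sense a shortage of amino acids, unfolded protein in the endoplasmic reticulum (ER), heme deficiency or viral RNA phosphorylate the initiation factor eIF2, which lowers translation in general while the ATF4 mRNA is translated more. ATF4, as a partner of C/EBP-family proteins, then activates genes for amino acid synthesis and uptake, for charging of tRNA and for redox balance, together with CHOP (encoded by DDIT3), which can lead on to cell death. The unfolded protein response of the ER also has an ATF6 and an IRE1-XBP1 branch, whose best known targets are the ER chaperones. The 6 score genes sit at several points of this response. CHAC1 degrades glutathione, SESN2 restrains the growth kinase mTORC1 when amino acids are short, STC2 encodes a secreted glycoprotein, TRIB3 encodes a pseudokinase that dampens the response, and CTH makes cysteine from cystathionine.

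Kept cells numbered 1868 to 3700 per library, with median depths of 26955 to 42464 UMIs per cell. Pairs of libraries shared 0 to 7 cell barcodes. In the 6 h library the high-score cells were slightly shallower than the low-score cells, with medians of 31338 and 34206 UMIs and of 6253 and 6663 genes. The median share of mitochondrial UMIs was 6.29% and 5.91%. Both sets carried the epithelial markers of the line at close levels, such as EPCAM at 384 and 383 CPM (counts scaled to a common total after summing cells) and KRT18 at 3197 and 3454 CPM. None of 20 markers of blood, stromal, endothelial and glial cells reached 10 CPM, and 12 of them were at 0 in the high-score cells. Their summed level was 10.7 CPM in the high-score and 10.8 CPM in the low-score cells. Doublets were not removed, and no cell type that lacks the stress genes was present to show the level of free RNA.

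The short sequence that ATF4 and C/EBP proteins bind together was looked for in the 250 bases upstream of RefSeq transcription starts (GRCh38.p14), as TGATGNAA on either strand, since it shows which of the genes reported below carry a textbook element near their start. Of 58 genes that were more than 1.5-fold higher in high-score cells and had a promoter in the table, 12 (20.7%) held the 8 letters. The same was true of 1 of 56 genes that were as much lower (1.79%), of 165 of 7515 genes measured in these cells (2.20%) and of 1061 of 27305 genes in the table (3.89%). Of the score genes themselves only CHAC1 held it in these windows, and elements outside the windows or with other letters would be missed. The windows below give the element in capitals with up to 11 bases on each side, read 5′ to 3′ on the gene's strand, and TTNCATCA is the same element on the opposite strand. A match is a description of the letters and not evidence of binding.
CHAC1: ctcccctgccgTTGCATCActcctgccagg
CEBPG: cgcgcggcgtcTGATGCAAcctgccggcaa
ATF3: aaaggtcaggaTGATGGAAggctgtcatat
HERPUD1: gacgcggcgggTTGCATCAgcccgtgccca
GADD45G: cgccgcctcatTTACATCAgaaagcgggtg
LURAP1L-AS1: gtaatttaggcTGATGCAAtcggctataaa
GARS: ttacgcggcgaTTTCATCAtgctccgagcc
The CHAC1 window lies at chr15:40953251-40953280 on the plus strand, in an exon of another CHAC1 transcript in GENCODE 29. The CEBPG window lies at chr19:33374060-33374089, plus strand, inside the annotated gene but in no exon. The ATF3 window at chr1:212565205-212565234, the HERPUD1 window at chr16:56931955-56931984 and the GADD45G window at chr9:89604899-89604928, all on the plus strand, lie in no annotated gene. The LURAP1L-AS1 window lies at chr9:12814410-12814439 on the minus strand, in an intron of the opposite gene LURAP1L, and that promoter holds a further match. The GARS window lies at chr7:30594834-30594863, plus strand, in an exon of another GARS transcript.

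The score was graded, with no gap at the limit. Its median over all kept cells was 3.20, the limit of the top 10% was 5.86, the cell just inside stood at 5.87 and the cell just outside at 5.86, and 261 cells lay within 10% of the limit. The highest cell scored 25.6 and 31 cells scored 0. TRIB3 gave 45.6% of the score UMIs of high-score cells and DDIT3 gave 23.7%. TRIB3 stood at 327 CPM in high-score, 198 CPM in intermediate and 83.2 CPM in low-score cells. DDIT3 stood at 170, 91.6 and 38.1 CPM in the same order, STC2 at 94.9, 54.6 and 26.0 CPM, SESN2 at 59.1, 43.6 and 22.4 CPM, CHAC1 at 36.3, 24.9 and 11.1 CPM, and CTH at 29.1, 17.0 and 7.84 CPM. All 6 were detected in 25.3% of high-score, 12.9% of intermediate and 2.07% of low-score cells, an order that the selection on their summed UMIs fixes in part.

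The score genes could be set against each other by leaving 1 out, choosing the cells by the other 5, and reading the gene that was left out. In the 6 h library every one of the 6 was then higher in the top 10%, from 1.60-fold (1.44 to 1.79) for SESN2 to 2.43-fold (2.07 to 2.84) for CTH. When each cell was thinned to 5000 UMIs before it was scored, the median of the 6 folds went from 2.0 to 1.44. In untreated cells at 0 h, where the genes were much rarer, the folds were wider, from 2.46 (2.32 to 2.62) for TRIB3 to 8.84 (6.83 to 11.5) for CHAC1. After 72 h of inhibitor and in recovery the median folds were 1.38 and 1.45. With thinned cells CTH stood at 0.94 (0.50 to 1.68) after 72 h of inhibitor. The 6 genes were chosen as a set with earlier results of these data known. Their folds are therefore a description and no support for the choice of cells. Over the 2996 cells, scores from 2 separate random parts of each cell's UMIs had a Pearson correlation of 0.57 and a Spearman correlation of 0.55, a description over cells that share 1 library and whose parts share the cell's depth.

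Outside the score, the high-score cells differed from the low-score cells in few genes. Of 9106 genes at 10 CPM or more in either set, 76 were more than 1.5-fold higher (0.835%) and 68 more than 1.5-fold lower (0.747%), and the median log2 ratio of all genes was -0.04. By direction alone 3706 of the 9106 genes were higher (40.7%), the share against which the counts within each list are to be read. The lists with the highest medians were stress regulators downstream of ATF4, amino acid transporters, and enzymes for the synthesis of serine, one-carbon units, proline and related amino acids (named below as the serine and one-carbon list). The lowest medians were those of G2/M genes, of basal keratins and adhesion genes, and of heat shock genes. The plot of genes by list shows the spread within each group.

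**Figure D1:**
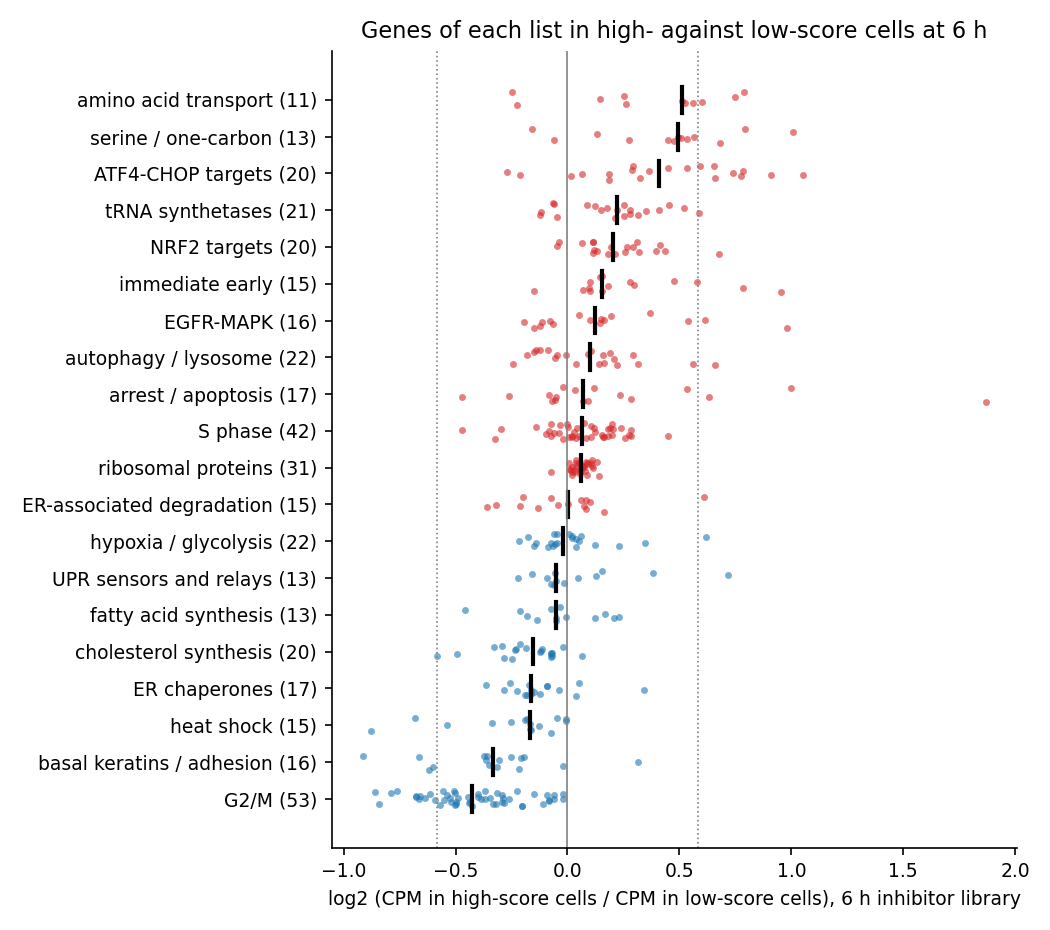
Each point is 1 gene of a list (number measured in parentheses), placed by the log2 ratio of its CPM in 300 high-score to 1498 low-score cells of the 6 h inhibitor library; black bars are list medians, dotted lines mark 1.5-fold, and red and blue mark lists with medians above and below 0. Amino acid transport, serine and one-carbon genes and ATF4-CHOP targets have the highest medians (0.51, 0.49 and 0.41), and G2/M genes the lowest (-0.43), all 53 of them below 0.

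Of 20 measured ATF4-CHOP response genes outside the score, 18 were higher in high-score cells and 8 passed 1.5-fold, with a median log2 ratio of 0.41. DDIT4, which restrains mTORC1, stood at 249 CPM in high-score, 199 CPM in intermediate and 120 CPM in low-score cells, a 2.07-fold difference (1.98 to 2.17) between the outer sets. NIBAN1, a stress-induced regulator of translation and survival, was 1.88-fold higher (1.76 to 2.01). The transcription factor ATF3 was 1.72-fold higher (1.58 to 1.88) and the chromatin-bound stress protein NUPR1 1.71-fold (1.63 to 1.79). PPP1R15A, which brings the phosphatase that reverses eIF2 phosphorylation, was 1.67-fold higher, the C/EBP partner CEBPG 1.58-fold and the death receptor gene TNFRSF10B 1.57-fold. ATF4 mRNA itself stood at 277 and 266 CPM, 1.04-fold (1.00 to 1.09). The lower members were ATF5 at 0.86 and PTGR1 at 0.83 of the low-score level.

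Of 13 measured genes of the serine and one-carbon list 11 were higher and 3 passed 1.5-fold, with a median log2 ratio of 0.49. ALDH1L2, a mitochondrial folate enzyme, stood at 38.8 against 19.3 CPM, 2.01-fold higher (1.78 to 2.26), and was detected in 66.0% against 43.9% of cells. PCK2, which makes phosphoenolpyruvate in mitochondria, was 1.73-fold higher (1.56 to 1.92), but only 1.10-fold (log2 0.14) when cells were thinned to 5000 UMIs before scoring. PYCR1, which makes proline, was 1.48-fold and GPT2, which makes alanine, 1.36-fold higher, while ALDH18A1, an earlier enzyme of proline synthesis, stood at 0.96. The 3 enzymes of serine synthesis were higher together, PSAT1 by 1.60-fold (1.52 to 1.69), PSPH by 1.41-fold and PHGDH by 1.39-fold. The mitochondrial enzymes SHMT2 and MTHFD2, which carry serine's carbon into folate, were 1.45-fold and 1.42-fold higher. Their cytosolic counterparts SHMT1 and MTHFD1 stood at 1.10 and 0.90 of the low-score level. DMGDH, a mitochondrial enzyme of choline breakdown that feeds folate and lies outside the list, was 2.43-fold higher (2.16 to 2.73), at 41.5 against 17.1 CPM, and 1.45-fold with thinned cells.

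Of 11 amino acid transporter genes 9 were higher and 3 passed 1.5-fold, with a median of 0.51. SLC7A11 and SLC3A2, the 2 chains of the cystine importer, were 1.73-fold (1.53 to 1.95) and 1.68-fold (1.62 to 1.74) higher, at 36.6 against 21.2 CPM and 412 against 245 CPM. SLC7A5, which pairs with SLC3A2 to import leucine, was 1.44-fold higher, the glycine carrier SLC6A9 1.52-fold and the glutamine carrier SLC38A2 1.42-fold. SLC6A14 and SLC7A6 stood at 0.86 and 0.84. Of 21 genes for tRNA charging and export, 16 were higher, with a smaller median of 0.22, and 1 passed 1.5-fold. That gene was GARS, for glycine, at 1.503-fold (1.44 to 1.56), followed by WARS for tryptophan at 1.44-fold and SARS for serine at 1.37-fold. Over the settings compared at the end, the log2 ratio of WARS went down to 0.062, from 0.52. HARS and KARS, for histidine and lysine, both stood at 0.92.

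Redox genes leaned the same way with smaller ratios. In a list of NRF2 targets and of glutathione and NADPH genes, 18 of 20 were higher, with a median of 0.20. GCLC, which limits the rate of glutathione synthesis, passed 1.5-fold at 1.60 (1.53 to 1.67), 278 against 173 CPM. Its log2 ratio of 0.68 went down to 0.20 over the settings compared at the end. TXNRD1, which reduces thioredoxin, was 1.31-fold higher, and HMOX1, which degrades heme, 1.10-fold. Ribosomal protein genes were higher in 30 of 31 cases, at a median of 0.06, and mitochondrially encoded genes in 11 of 13, at 0.10. The ribosomal median turned to -0.019 when only cells low in both cell cycle lists were compared.

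The ER chaperones were not higher with these groups. Of 17 measured, 3 were higher and 14 lower in high-score cells, none passed 1.5-fold, and the median log2 ratio was -0.16. HSPA5, the main ER chaperone, stood at 78.7 CPM in high-score, 74.1 CPM in intermediate and 75.9 CPM in low-score cells, a ratio of 1.04 (0.96 to 1.12). CALR stood at 240 against 287 CPM, PDIA4 at 42.3 against 49.5 CPM and HSP90B1 at 283 against 322 CPM. DNAJB9 was the highest of the list at 1.27-fold (1.03 to 1.55), on 121 UMIs. Of 15 genes for ER-associated degradation 8 were higher, with a median of 0.00. HERPUD1 alone among them passed 1.5-fold, at 90.4 against 59.2 CPM (1.53, 1.42 to 1.64), while VCP, the ATPase that extracts proteins from the ER, stood at 0.80 (0.77 to 0.83). XBP1, the transcription factor of the IRE1 branch, was 1.64-fold higher (1.55 to 1.73), at 173 against 105 CPM. The 4 eIF2 kinases EIF2AK1, EIF2AK2, EIF2AK3 and EIF2AK4 lay between 0.86 and 0.96 of the low-score level. Transcript levels do not show whether XBP1 mRNA was spliced.

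Of 13 fatty acid synthesis genes 4 were higher (30.8%, against 40.7% of all genes), with a median of -0.05, close to the -0.04 of all genes. Of 20 cholesterol genes 1 was higher (5.0%), with a median of -0.15. ACACA, which encodes the cytosolic ACC enzyme, stood at 58.3 against 61.4 CPM, a ratio of 0.95 (0.87 to 1.04). ACACB had 53 UMIs in the high-score cells, 5.44 against 6.14 CPM. LSS, an enzyme of the sterol pathway, stood at 0.67 (0.57 to 0.78).

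Growth arrest genes of the GADD45 family stood high among the remaining genes, while others of the same list did not. GADD45A, which acts in arrest and DNA repair, stood at 452 against 226 CPM, 2.0-fold higher (1.93 to 2.07). GADD45G was 3.66-fold higher (2.88 to 4.63), at 12.3 against 3.37 CPM, and 2.35-fold with thinned cells, and GADD45B 1.55-fold (1.44 to 1.67). The GADD45G signal was uneven between cells. It was seen in 33.3% of the 30 cells of highest score, 11.5% of the other 270 high-score cells and 10.8% of low-score cells. Only 4 high-score cells and 0 low-score cells had 5 or more of its UMIs. Of the list of 17 arrest and apoptosis genes 10 were higher, with a median of 0.07, and the cell cycle inhibitor CDKN1A stood at 0.95. Other genes with large ratios were the small nucleolar RNA host gene SNHG12 at 2.91-fold (2.62 to 3.24), the antisense transcript LURAP1L-AS1 at 2.74-fold (2.34 to 3.21), which fell to 1.27-fold with thinned cells, the transcriptional inhibitor ID4 at 2.11-fold (1.98 to 2.25), the uridine phosphorylase UPP1 at 1.76-fold (1.71 to 1.81) and the growth factor HBEGF at 1.97-fold (1.66 to 2.34). The log2 ratio of UPP1 went from 0.81 down to 0.28 over the settings compared at the end. No source used here says whether the counting kept strands apart, so that antisense transcripts may share reads with overlapping genes.

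Mitotic genes were lower in every case. All 53 measured G2/M genes had less signal in high-score cells, with a median log2 ratio of -0.43, and 11 passed 1.5-fold. That median was -0.13 when cells were thinned before scoring and -0.27 when score and readout came from separate parts of the UMIs. PLK1, the mitotic kinase, stood at 26.4 against 48.9 CPM (0.54, 0.47 to 0.61), CDC20, an activator of the anaphase-promoting complex, at 77.4 against 131 CPM (log2 -0.76, and -0.17 with thinned cells), and AURKA at 36.8 against 63.7 CPM. Of 42 S-phase genes 29 were higher, with a median of 0.06. The cells were therefore counted by cycle state on thinned counts. Cells among the 10% with most G2/M UMIs made up 5.33% (3.08 to 8.52) of high-score and 11.5% (9.91 to 13.2) of low-score cells. Cells low in both lists made up 33.0% (27.7 to 38.6) and 25.03% (22.9 to 27.3). When only the cells low in both lists were scored and compared, 80 against 400, the ATF4-CHOP list had a median of 0.57 and the G2/M list one of -0.15 over the 34 genes still measured, and PLK1 had a log2 ratio of 0.089, on 13 UMIs in the high-score cells.

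Basal epithelial genes and heat shock genes were also lower. Of 16 basal genes 15 were lower, with a median of -0.33, which became -0.095 with thinned cells and -0.048 with a score without TRIB3. The laminin receptor chain ITGB4 stood at 0.65 (0.58 to 0.72), KRT6A at 0.66 (0.61 to 0.72) and KRT14 at 0.53 (0.44 to 0.63) of the low-score level, whereas KRT81 was 1.25-fold higher. KRT14 rested on 132 UMIs in the high-score cells, and after thinning its ratio turned, with a log2 value of 0.30. All 15 heat shock genes were lower, with a median of -0.17, among them HSPA8 at 329 against 477 CPM (0.69, 0.66 to 0.71). Of 15 immediate early genes 14 were higher, with a median of 0.15, and 2 passed 1.5-fold, ATF3 and the transcription factor gene KLF4 at 1.94-fold, on 101 UMIs. The remaining lists had medians of 0.12 for EGFR-MAPK feedback, 0.10 for autophagy and lysosome, 0.01 for mitochondrial stress, -0.0046 for mTORC1 and energy sensing, -0.02 for hypoxia and glycolysis, -0.03 for nuclear-encoded respiratory chain and for epithelial genes, -0.05 for UPR sensors and for interferon response, -0.13 for calprotectin and skin defence genes and -0.14 for NF-kB targets. CXCL8, an inflammatory chemokine, had the lowest ratio among the named genes, 0.49 (0.40 to 0.60), and was seen in 9.67% of high-score and 13.6% of low-score cells. Its direction turned in cells low in both cell cycle lists (log2 0.067) and with a score without TRIB3 (0.017).

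To see whether these differences were confined to the top of the score, cells were ranked by the score from a random part of their UMIs and read from the other part. The ranked cells were cut into 10 deciles. The summed ATF4-CHOP list went from 1068 CPM in the lowest decile to 1376 CPM in the fifth and 1707 CPM in the highest, and it was higher at each of 9 steps. Serine and one-carbon genes went from 926 to 1525 CPM, higher at 8 of 9 steps, and amino acid transporters from 684 to 1072 CPM. DDIT4 went from 69.8 CPM to 165 CPM in the fifth and 239 CPM in the highest decile, so that much of its difference lay among cells below the median. SNHG12 had another shape, with 21.4 CPM in the lowest, 19.3 CPM in the fifth, 30.4 CPM in the ninth and 46.3 CPM in the highest decile. The ER chaperone list went from 2054 to 1833 CPM. The G2/M list did not fall step by step. It stood at 5290 CPM in the lowest, 5677 CPM in the fifth, 4957 CPM in the ninth and 4753 CPM in the highest decile.

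**Figure D2:**
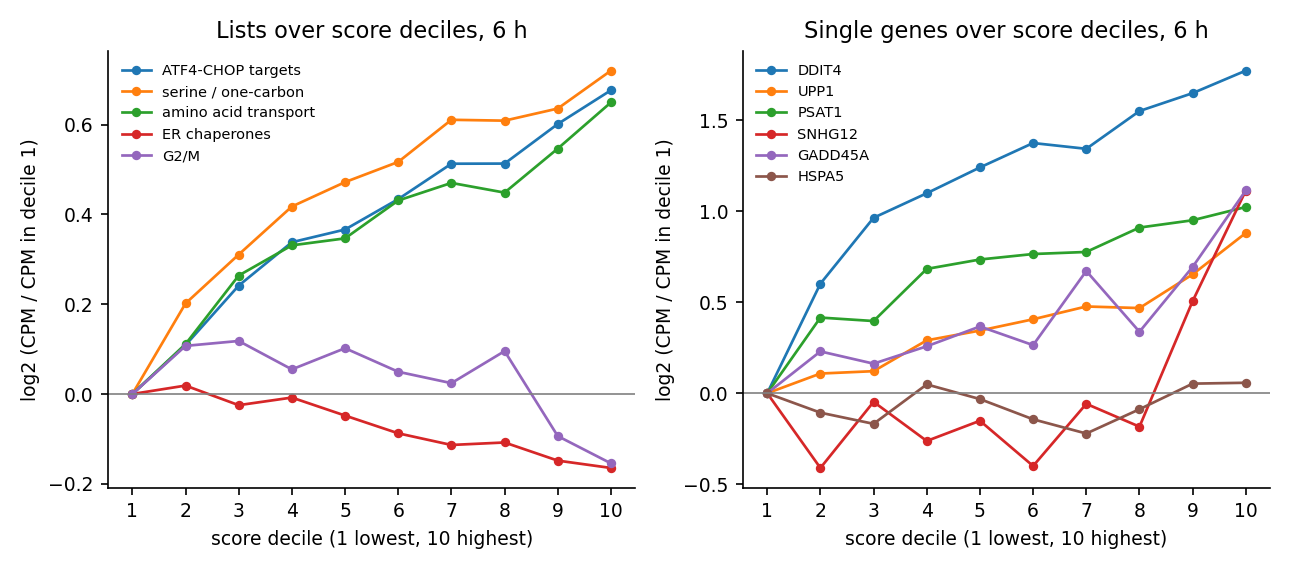
Cells of the 6 h library are placed on the x axis in deciles by a score from part of their UMIs, and the y axis gives the log2 ratio of the CPM in the other UMIs to that of the lowest decile, for 5 lists (left) and 6 genes (right). The ATF4-CHOP, serine and one-carbon, and amino acid transport lists and DDIT4 climb over most deciles. SNHG12 climbs and G2/M falls in the top 2, and HSPA5 stays near 0.

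The shape of SNHG12 led to a look at the very top, which was chosen after these values had been seen. The 30 cells of highest score, 1% of kept cells, scored 8.85 or more and had a median of 27637 UMIs. SNHG12 stood at 159 CPM in them, 43.6 CPM in the other 270 high-score cells and 18.4 CPM in low-score cells. GADD45G stood at 63.5, 7.52 and 3.37 CPM, GADD45A at 1219, 380 and 226 CPM and ATF3 at 174, 57.4 and 39.1 CPM. Several other genes differed less between the 30 and the 270 cells, and these were not only metabolic genes. NUPR1 was 1.25-fold (1.08 to 1.43) and XBP1 1.12-fold (0.95 to 1.32) higher in the 30 cells. The transporter gene SLC3A2 was 1.56-fold higher (1.42 to 1.71). PSAT1 stood at 223, 184 and 117 CPM, PCK2 at 53.9, 46.3 and 27.1 CPM, UPP1 at 642, 568 and 327 CPM, and ALDH1L2 at 33.5, 39.3 and 19.3 CPM. HSPA5 stood at 110, 75.7 and 75.9 CPM. Without these 30 cells the ratio of the high-score to the low-score cells was 2.37 (2.11 to 2.67) for SNHG12, 1.68 (1.62 to 1.75) for GADD45A and 2.23 (1.66 to 2.97) for GADD45G, the last down from 3.66. The SNHG12 signal was uneven between cells, as 8.0% of high-score and 0.668% of low-score cells had 5 or more of its UMIs while 52.0% and 44.0% had at least 1.

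Untreated cells held a small number of cells with as high a score. At 0 h, 44 of 3700 cells reached the 6 h limit. In these 44 cells SNHG12 stood at 240 CPM against 14.2 CPM in the low-score cells of that library, GADD45G at 69.4 against 3.91 CPM, GADD45A at 993 against 86.2 CPM and DDIT4 at 449 against 31.2 CPM. HSPA5 stood at 198 against 74.8 CPM, and GDF15, a secreted stress signal, at 65.8 against 0.319 CPM, with its 72 UMIs in 9.09% of the 44 cells. The 44 cells had a median of 25183 UMIs. GDF15 had 3 UMIs in the 30 highest cells at 6 h, seen in 10.0% of them, a share close to that of the 44 cells.

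**Figure D3:**
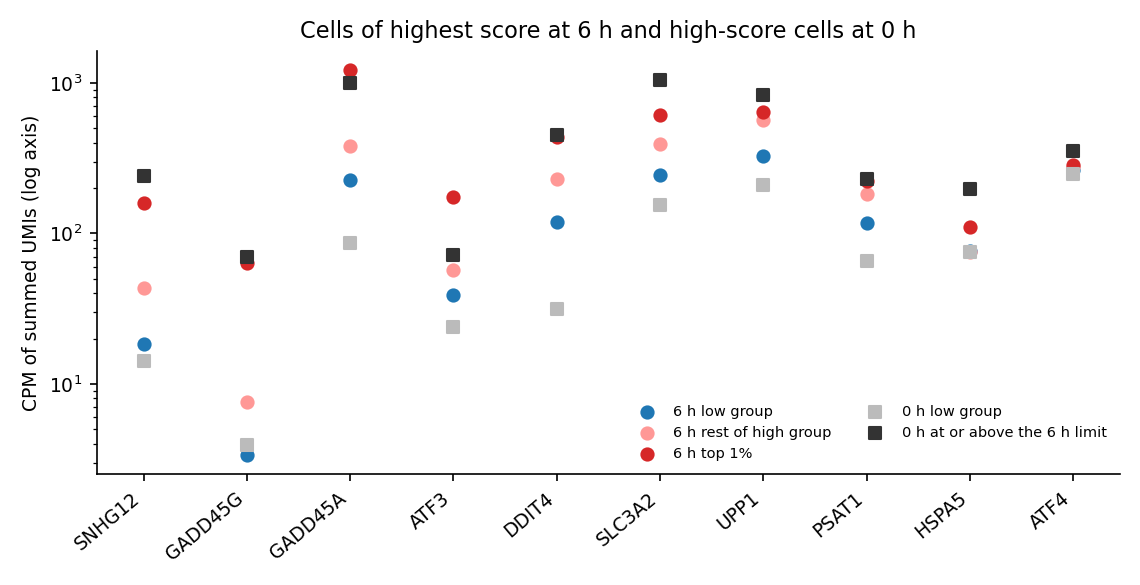
Points give the CPM of summed UMIs (log axis) for 10 genes in the 30 highest-score cells at 6 h (red), the other 270 high-score cells (pink) and the low-score cells (blue), and in the 44 untreated 0 h cells at or above the 6 h limit (black squares) and the low-score cells at 0 h (grey squares). The summed CPM of SNHG12, GADD45G and GADD45A is higher in the 30 and the 44 cells than in the other sets. Not every one of these cells held SNHG12 or GADD45G UMIs. ATF4 lies between 266 and 283 CPM in the 3 sets at 6 h, and at 355 against 248 CPM in the 44 and the low-score cells at 0 h, 1.43-fold (1.29 to 1.58).

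The score of the 6 h library was next set beside the other libraries, with every cell thinned to 5000 UMIs so that depth was equal. The limit of the top 10% at 6 h then was 4 UMIs, a whole number that 12.4% (11.3 to 13.7) of 6 h cells reached. It was reached by 1.38% (1.03 to 1.81) of untreated cells at 0 h, 5.03% (4.26 to 5.89) of untreated cells at 72 h, 25.8% (23.8 to 27.9) of inhibitor cells at 72 h and 40.4% (38.8 to 42.1) of recovery cells. Without thinning the shares were 1.19%, 10.0%, 3.19%, 31.7% and 54.8% at 0 h, at 6 h, in untreated 72 h cells, in 72 h inhibitor cells and in recovery. By the summed score the 6 h library was above both untreated libraries and below both later libraries of treated cells, and the single genes did not all follow this order. Over all cells DDIT3 stood at 71.6 CPM at 6 h, 213 CPM after 72 h of inhibitor and 435 CPM in recovery. CHAC1, in contrast, stood at 18.9 CPM at 6 h but 4.24 and 9.28 CPM in the same later libraries, and STC2 at 43.8 but 28.9 and 31.2 CPM. SESN2 stood at 34.3, 14.2 and 41.7 CPM in this order. Low-score cells at 6 h were also above low-score cells at 0 h, with 1237 against 890 CPM for the summed ATF4-CHOP list, which holds none of the score genes.

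**Figure D4:**
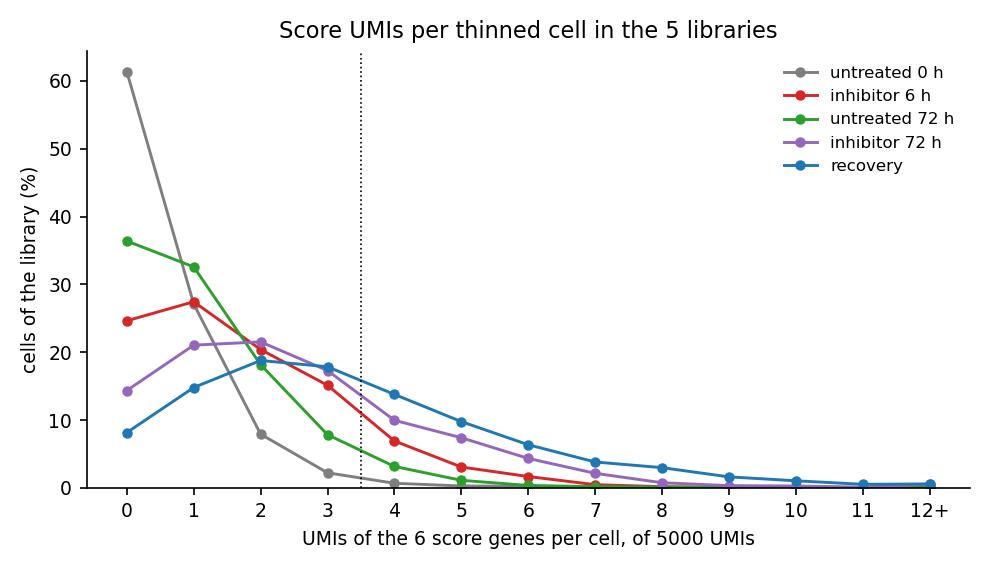
Lines give the percent of each library's cells (y axis) with a given number of UMIs of the 6 score genes after thinning to 5000 UMIs (x axis); the dotted line marks the 6 h limit of 4. The share of cells to the right of it is 1.38% at 0 h, 12.4% at 6 h, 5.03% in untreated 72 h cells, 25.8% in 72 h inhibitor cells and 40.4% in recovery.

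The same rule was then applied within each library, top 10% against the lower part, to see whether its high-score cells differed in the same genes. The limits differed between libraries. High-score cells began at a score of 2.20 at 0 h, and low-score cells reached 6.23 in recovery, past the 6 h limit of 5.86. The low-score cells held the ATF4-CHOP list at 2514 CPM at 72 h of inhibitor and 2537 CPM in recovery. Both were above the 1754 CPM of high-score cells at 6 h. Ratios in those libraries are therefore read against cells that already held this list at a high level. Of 8773 genes at 0 h, 99 were more than 1.5-fold higher (1.13%) and 21 lower (0.239%). At 72 h untreated the shares were 1.53% and 0.965% of 9331 genes, at 72 h of inhibitor 1.91% and 7.08% of 8749, and in recovery 0.587% and 2.71% of 8523. Of the 76 genes higher at 6 h, 34 were also past 1.5-fold at 0 h, 44.7% of the 76 and 34.3% of the 99. At 72 h untreated 22 were shared (28.9% and 15.4% of the lists), at 72 h of inhibitor 8 (10.5% and 4.79%) and in recovery 5 (6.58% and 10.0%). Of the 68 genes lower at 6 h, 1 was also lower past 1.5-fold at 0 h, 1.47% of the 68 and 4.76% of the 21. There were 19 at 72 h untreated (27.9% and 21.1%), 22 at 72 h of inhibitor (32.4% and 3.55%) and 11 in recovery (16.2% and 4.76%). By direction alone, all 57 of the 76 that could be measured at 0 h were higher there too, where 46.6% of all genes measured in both were higher. The same held for 58 of 65 at 72 h untreated, against 55.4% of all genes, for 33 of 68 at 72 h of inhibitor, against 41.3%, and for 33 of 56 in recovery, against 41.1%. Of the 68 lower genes, 43 of 57 measured at 0 h were lower there, against 53.4% of all genes, 54 of 62 at 72 h untreated, against 44.6%, 39 of 44 at 72 h of inhibitor, against 58.7%, and 40 of 44 in recovery, against 58.9%.

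The list medians were also computed within each library. The median log2 ratio of the serine and one-carbon list was 0.70 at 0 h, 0.49 at 6 h and 0.27 at 72 h untreated, but 0.02 after 72 h of inhibitor and 0.07 in recovery. The low-score cells held this list at 824, 1113, 1248, 1257 and 1331 CPM in the same order. In untreated 72 h cells the S-phase list had the highest median, 0.47, with all 40 measured genes higher and 13 past 1.5-fold, before the ATF4-CHOP list at 0.38 and the amino acid transporters at 0.28. The median of the ER chaperones was -0.03, -0.16 and 0.03 at 0 h, at 6 h and in untreated 72 h cells, but 0.58 after 72 h of inhibitor and 0.30 in recovery, in each of which 16 of 17 were higher. HSPA5 had a log2 ratio of 0.05 at 6 h, 1.52 after 72 h of inhibitor and 1.17 in the recovery library. SNHG12 had one of 2.16 at 0 h, 1.54 at 6 h, 1.96 in untreated 72 h cells, -0.03 after 72 h of inhibitor and 0.13 in recovery, where it stood at 150 and 137 CPM in high-score and low-score cells. These differences between libraries were not tested, as there was 1 library per group. The G2/M list was lower in high-score cells of all 5 libraries, with medians of -0.06 at 0 h, -0.43 at 6 h, -0.18 in untreated 72 h cells, -0.78 after 72 h of inhibitor and -0.30 in recovery.

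**Figure D5:**
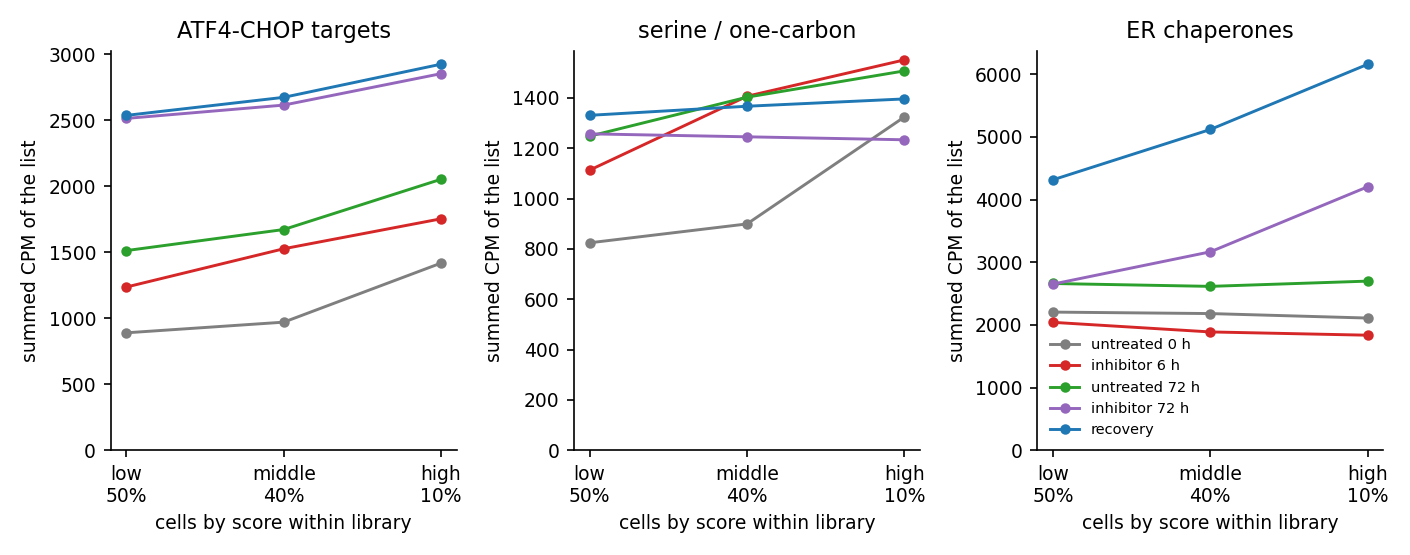
Summed CPM of 3 lists (y axes, from 0) in the low, middle and high cells by score within each of the 5 libraries (x axis). At 6 h the ATF4-CHOP list goes from 1237 to 1754 CPM and the ER chaperones from 2041 to 1836 CPM, while at 72 h of inhibitor the chaperones go from 2651 to 4203 CPM and in recovery from 4314 to 6156 CPM.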

How the data were processed

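The data are 5 single-cell libraries of MDA-MB-468 cells, deposited as raw UMI counts (36601 features by barcode). Reads were counted with Cell Ranger 7.1.0 on GRCh38, per the submitters' processing notes. No source used here states the annotation release, intronic counting or strand setting. Kept cells had a total of 85197344 to 114332800 UMIs per library.

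The members, gene lists and settings were chosen with earlier results of these data known. Counts of the cells of a set were summed and scaled to CPM of the set's total without the 6 score genes; the score genes' own CPM uses all UMIs. Ratios have exact Clopper-Pearson 95% intervals, conditional on the sum of both counts. UMIs of 1 cell are not independent samples of a condition. Genes were measured at 10 CPM or more in either set. A list's median was given for 5 or more measured members, and a sum of 0 counted as a floor of 3. List symbols missing from the features were matched by gene ID, for 19 genes.

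Named genes were ranked among those at 20 CPM or more by the smaller log2 ratio of the shallower and deeper cells, 15 each way, with up to 4 members of each of 29 lists added. The 30 highest cells, SHMT1 and other list members outside the rule were chosen after their values were seen. Gene positions are from GENCODE 29 and promoters from RefSeq GRCh38.p14. Steps were tested on simulated counts. Software was scipy 1.17.1, numpy 2.4.6, pandas 2.3.3 and matplotlib 3.10.9 in Python 3.11.15.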

Additional observations from a re-analysis of the deposited data

How the results depend on the processing

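The 6 h comparison was recomputed under 16 settings, of which 2, a score without TRIB3 and the high-score cells without the 1% of highest score, were chosen after seeing the data. The percent of higher ER chaperone genes stayed within 5.88% to 23.5% in all 16, and the medians of the ATF4-CHOP, serine and one-carbon, and amino acid transporter lists stayed above 0, at 0.28 to 0.70, 0.29 to 0.54 and 0.34 to 0.54. At a minimum of 50 CPM these lists were 100% higher, on 10, 7 and 6 genes.

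The counts of genes past 1.5-fold, 76 higher and 68 lower, depended on the setting. They were 182 and 217 with cells thinned to 5000 UMIs, 1739 and 1849 without an expression minimum, 30 and 16 at 50 CPM, 158 and 159 for the top 5%, 45 and 24 for the top 20%, 36 and 40 against all other cells, and 312 and 175 in cells low in both cycle lists. The lower count was 124 between the 25th and 75th percentile of UMIs and 34 without TRIB3. The ratio of median UMIs of 0.916 was 0.977 with thinned cells and 0.995 within the middle of depth; scaling and expression settings give no value for it.

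Among genes past 1.5-fold and lists with medians of at least 0.1 in size, the directions that turned were log2 values of KRT14 (0.30) and TNS4 (0.044) with thinned cells, PLK1 (0.089) and CXCL8 (0.067) in cells low in both cycle lists, CXCL8 (0.017) and MANCR (0.057) without TRIB3, and the NF-kB list's median for the top 5% (0.082) and without TRIB3 (0.012). The cause was not tested. Smaller ratios changed sign more often, in 22 of the 131 genes followed, among them HSPA5 (same sign in 13 of 16 settings), DNAJB9, EIF2AK3 and ACACA (14 each), and 12 of 28 list medians changed sign under some setting, such as fatty acid synthesis at 0.057 with separate UMI parts. In all, 17 genes moved by more than 1.5-fold under some setting.

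Unthinned shares of cells at the 6 h limit were 10.0% at 6 h, 3.19% in untreated 72 h cells, 31.7% in 72 h inhibitor cells and 54.8% in recovery. With thinned cells the held-out score genes had median folds of 1.44 at 6 h and 1.54 at 72 h untreated, 75% of ATF4-CHOP genes were higher at 0 h in place of 100%, and 100% of ER chaperones at 72 h of inhibitor. No paired analysis was possible because each group had 1 library.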
